A study of Mus musculus with 12 samples.

Results

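The oxLDL response of macrophages that lack Atf3 was measured on 6 of the 12 arrays of the series, 3 from Atf3-/- cells given oxLDL and 3 from Atf3-/- cells left unstimulated. The groups were set by the labels. These 6 arrays were fitted apart from the others because earlier results of these data had shown the knockout replicates to be tighter than WT. Macrophages were grown with recombinant human M-CSF from the bone marrow of female C57BL/6J mice aged 8 to 12 weeks and fed normal chow. The first group carried no Atf3 and received copper-oxidised human LDL at 25 ug/mL for 24 h, and the second carried no Atf3 and received none. The other 6 arrays hold WT macrophages, 3 with the same oxLDL dose and 3 unstimulated, and serve here only as a comparison. The labels describe 12 separate mice but do not say whether cultures or RNA shared a day, and they give no processing batch. The p-values below therefore describe variation among the samples of each fit, and how much of it is technical is unknown. Those samples are the 6 knockout arrays unless the 6 WT arrays or all 12 are named. The labels do not describe how the Atf3 allele was made or whether the knockout was of the whole animal. The Affymetrix Mouse Exon 1.0 ST array reads each transcript with a set of probes, and each of the 74007 probe sets in the table carries an Ensembl transcript ID and a log2 expression level.

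Oxidised LDL enters macrophages through scavenger receptors such as CD36 and the class A receptors, and its cholesterol is stored as esters in droplets, which gives foam cells. Sterol overload is known to lower SREBP-driven cholesterol synthesis and to raise LXR targets that export cholesterol, and oxidised lipids are known to activate the antioxidant factor Nrf2. ATF3 is a stress-induced member of the ATF/CREB family of transcription factors that often acts as a repressor of inflammatory genes in macrophages. The comparison of stimulated and unstimulated knockout cells addresses which transcripts answer oxLDL when this factor is missing. Of 49997 entries in the gene table used for names, 0 hold an Ensembl ID, so 0 of the 74007 IDs were paired with a gene symbol. Results are therefore given by ID and by groups of IDs, and the genes of these pathways, the macrophage markers and Atf3 itself were not analysed here.

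Stimulus was the main difference among the 6 knockout arrays. The first principal component held 71.0% of their variance and placed the 3 oxLDL arrays at 18.4 to 19.8 and the 3 unstimulated arrays at -20.1 to -18.2. The second component set oxLDL replicate 2, at -15.9, apart from oxLDL replicates 1 and 3, at 8.82 and 6.76. Replicates correlated across the tested IDs with a Pearson r of 0.992 to 0.996. The root mean square SD between replicates was 0.0851 in knockout cells with oxLDL and 0.0668 in unstimulated knockout cells, against 0.317 and 0.224 in the corresponding WT groups. The medians of the knockout arrays lay between 8.53 and 8.57, and having 3 arrays a group limits how precise any value can be.

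The transcript that rose most in knockout macrophages was ENSMUST00000149983. Its level was 12.06, 11.94 and 11.94 on the oxLDL arrays and 10.27, 10.17 and 10.02 on the unstimulated arrays (log2). All 3 stimulated cultures lay more than 1 log2 unit above every unstimulated one. The means were 11.98 ± 0.07 with oxLDL and 10.15 ± 0.12 without it (SD, n = 3 arrays each). The rise was 3.55-fold, a log2 change of 1.83 with a standard error of 0.06 (limma adjusted p = 4.21e-08). ENSMUST00000029769 was next, with levels of 12.05, 11.84 and 11.91 with oxLDL and 10.29, 10.19 and 10.10 without it. It rose 3.34-fold (limma adjusted p = 5.11e-08). These IDs followed each other within 0.15 on all 12 arrays once each was centred on its own mean, so they count as 1 signal.

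The transcript that fell most was ENSMUST00000087904. Its level was 7.98, 7.99 and 8.30 on the oxLDL arrays and 9.67, 9.84 and 9.52 on the unstimulated arrays (log2), so the groups did not overlap. It was 3.0-fold lower with oxLDL, a log2 change of -1.59 with a standard error of 0.09 (limma adjusted p = 1.23e-06). This ID was brighter than the array median on the unstimulated arrays alone. It was tested only through them, so its groups had to differ. With no filter on brightness its limma adjusted p was 8.36e-05. ENSMUST00000079824 had levels of 9.36, 9.08 and 9.32 with oxLDL and 10.94, 10.82 and 10.75 without it. Its change was -1.58 with a standard error of 0.07 (limma adjusted p = 3.19e-07). On ENSMUST00000079824 the highest oxLDL array lay more than 1 log2 unit below the lowest unstimulated one, and its means were 9.25 ± 0.15 with oxLDL and 10.83 ± 0.09 without it (SD, n = 3 arrays each). ENSMUST00000087904 had means of 8.09 ± 0.18 with oxLDL and 9.68 ± 0.16 without it. With 3 arrays against 3, an exact permutation test of 1 transcript cannot give a two-sided p below 0.1, so none was run.

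**Figure D1:**
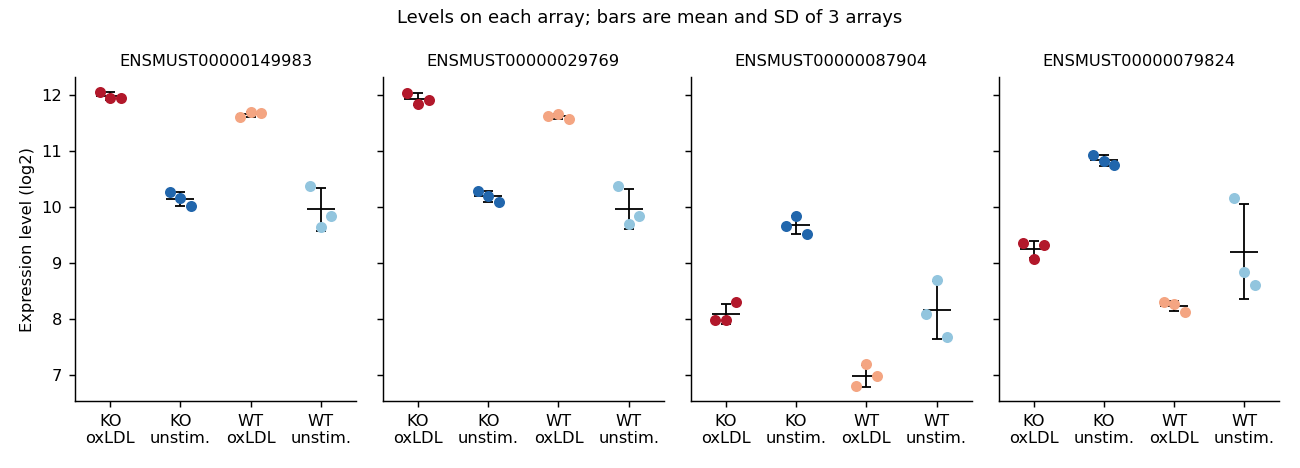
Levels (log2) of the 2 IDs that rose most and the 2 that fell most in the knockout, on each of the 12 arrays, with knockout groups to the left of WT groups and oxLDL to the left of unstimulated. Points are arrays, and bars are the mean and SD of 3 arrays. Knockout oxLDL and unstimulated arrays do not overlap in any panel, which the choice of these IDs required. Unstimulated WT arrays spread more widely than knockout arrays.

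In all, 37434 IDs were tested, namely those brighter than an array's median on 3 or more of the 6 knockout arrays. Of these, 9706 passed in limma on the 6 arrays at a Benjamini-Hochberg adjusted p under 0.05, which is 25.9%. They comprised 5505 higher with oxLDL, 14.7% of those tested, and 4201 lower, 11.2%. Most changes were small, and 96.7% of tested IDs changed by less than 0.5 on the log2 scale (1.41-fold). The groups did not overlap in 15239 tested IDs, or 40.7%, of which 9133 were higher with oxLDL and 6106 lower. A fit that pools the spread of all 12 arrays called 618 of the same IDs, 246 higher and 372 lower, so the long list rests on the tight knockout replicates.

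The balance of rises and falls among called IDs differed between classes of size. Among the called IDs with a change under 0.25, 3383 were higher with oxLDL and 1730 lower, so 66.2% were higher. Between 0.25 and 0.5 the counts were 1685 and 1654. Between 0.5 and 1 falls outnumbered rises, with 370 IDs higher and 796 lower, or 31.7% higher. Over 1, rises outnumbered falls again, with 67 IDs higher and 21 lower, or 76.1% higher. Called changes of moderate size were therefore mostly falls, and those of more than 2-fold mostly rises. Rises made up 58.6% of all 37434 tested IDs, called or not, which is the share to set beside the 66.2%. The excess of rises in the smallest class is therefore read no further. Leaving out 1 knockout array put the share of rises among all calls at 46.1% to 67.7%. The classes under 1 were not refitted in that way, so how far their shares rested on single arrays is unknown. Array scaling lowered the share of rises in every class. After quantile normalization the share was 60.4%, 44.6%, 28.7% and 73.5% from the smallest class to the largest. The balance between 0.25 and 0.5 turned to falls after quantile normalization, 1471 higher against 1830 lower. The median change over all tested IDs was 0.03 as deposited and 0.01 after quantile normalization.

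**Figure D2:**
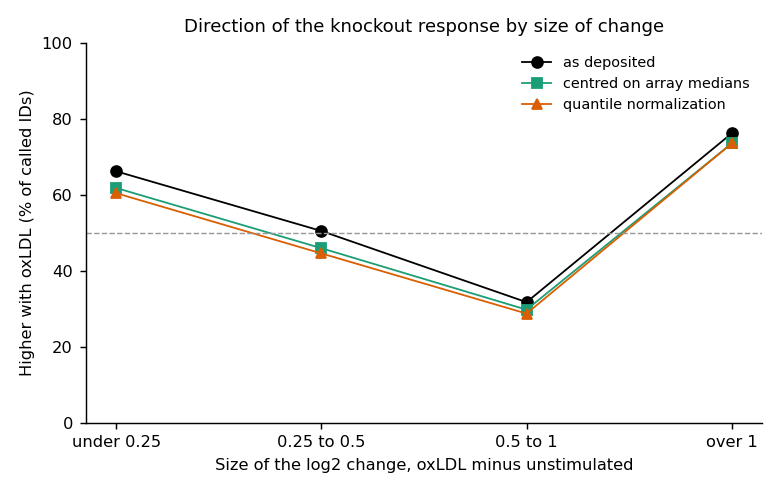
Share of called IDs that were higher with oxLDL in knockout macrophages (percent, y axis) in 4 classes of the size of the log2 change (x axis), with the values as deposited and after each of 2 scalings. The dashed line marks equal numbers of rises and falls. Over all tested IDs, called or not, 58.6% were higher as deposited. The share is lowest, 28.7% to 31.7%, between 0.5 and 1 and highest, 73.5% to 76.1%, over 1.

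The 88 IDs that passed with a change of over 1, 0.235% of those tested, were fewer signals than IDs. The 67 that rose formed 47 signals, of which 37 were single IDs and the largest held 5 IDs. The 21 that fell formed 18 signals, of which 15 were single IDs. The rises had a median change of 1.22 and ended at the 1.83 of ENSMUST00000149983, and the falls had a median of -1.23 and reached -1.59. Just inside the bound of 1 the nearest called ID changed by 1.0001 in size, and just outside it by 0.9999. All 88 had knockout groups that did not overlap, where 40.7% of tested IDs did so. Their choice by a large change on these same arrays made that nearly certain, so it adds no support. Of the rises, 7 passed the filter on dim IDs through the oxLDL arrays alone, and 8 of the falls did so through the unstimulated arrays alone, and such IDs had to differ. ENSMUST00000087904 was among these 8 falls. In the fit on all 12 arrays 58 of the 67 rises and 18 of the 21 falls also passed, where 618 of the 37434 tested IDs did. That fit takes its spread from more arrays but has the same knockout changes by which the 88 were chosen. Passing it is therefore not independent support.

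**Figure D3:**
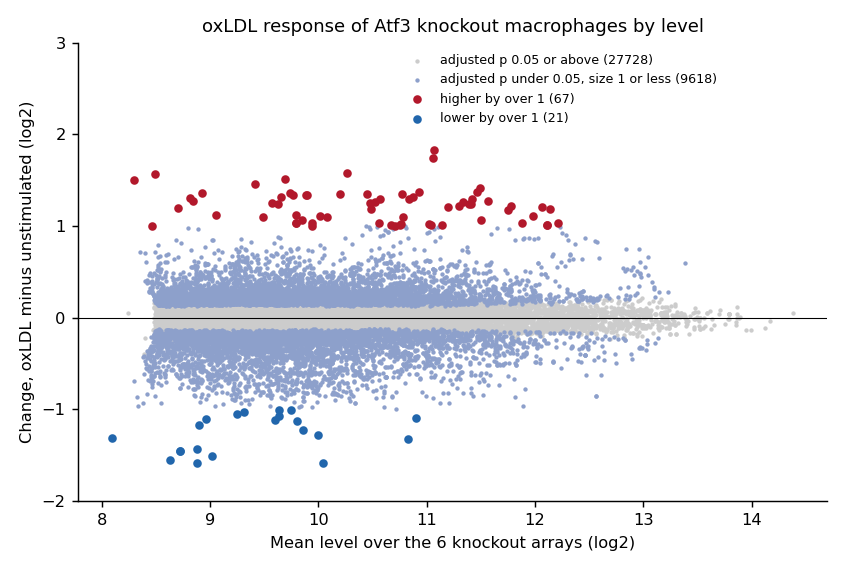
Log2 change of each tested ID in knockout macrophages, oxLDL minus unstimulated (y axis), against its mean level over the 6 knockout arrays (log2, x axis). Each point is an ID, and colours mark the 67 IDs higher and the 21 lower by over 1 among those with adjusted p under 0.05. Since the x axis includes the oxLDL arrays, a rise moves an ID to the right and a fall to the left.

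The 3 oxLDL cultures of the knockout differed somewhat in the size of the response. Over the 67 rises, the median change against the mean of the unstimulated arrays was 1.30 on oxLDL replicate 1, 1.07 on replicate 2 and 1.25 on replicate 3. Replicate 2 was the array nearest to the unstimulated level in 59 of the 67 IDs. For the 21 falls the medians were -1.19, -1.31 and -1.16, and replicate 2 was the farthest in 13 of them. It thus had the smallest rises and the largest falls. The same held for changes of 0.5 to 1, with median rises of 0.65, 0.55 and 0.64 over 370 IDs and median falls of -0.61, -0.70 and -0.59 over 796 IDs. Over all tested IDs replicate 2 lay below its group mean in 78.0%, by a median of 0.046. Centring each array on its median reduced that deviation to 0.027, and the median rise over 1 on replicate 2 was then 1.08, against 1.29 and 1.22 on the others. Without oxLDL replicate 2 the fit called 12359 IDs, 8365 higher and 3994 lower, and without oxLDL replicate 3 it called 7156, of which 3299 were higher and 3857 lower. The overall balance of rises and falls therefore rested on single arrays. The excess of rises over 1 did not, at 57 higher and 29 lower without replicate 3.

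**Figure D4:**
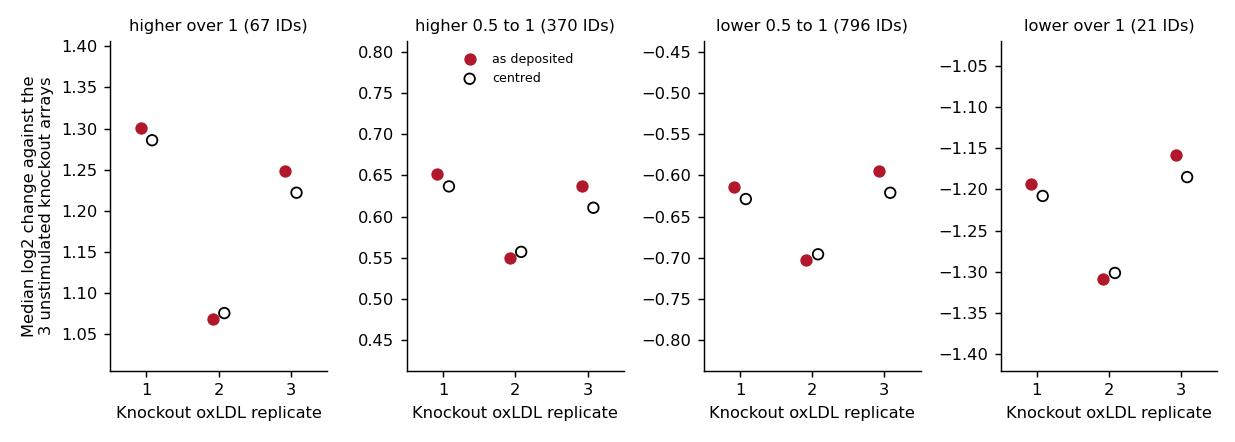
Median log2 change on each knockout oxLDL array against the mean of the 3 unstimulated knockout arrays (y axis, a window of 0.4 in each panel that does not start at 0), for 4 lists of called IDs. Filled points are values as deposited, and open points are values after centring each array on its median. Replicate 2 has the smallest median rise in both panels of rises and the largest median fall in both panels of falls.

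In WT macrophages the strongest knockout responders moved the same way. All 67 rises over 1 had a positive WT change and all 21 falls a negative one, where 46.2% of all tested IDs had a positive WT change and 53.8% a negative one. The median WT change was 1.12 for the rises, from 0.30 to 2.25, and -1.17 for the falls, from -2.54 to -0.50. In the fit on the 6 WT arrays 35 of the rises and 12 of the falls passed, where 0.898% of tested IDs did, 0.174% higher and 0.724% lower. That share was 336 of the 37434 tested IDs. The counts of rises and falls rested on single WT arrays. They were 2 and 1 without unstimulated WT replicate 1, where 7 of the 37434 tested IDs passed. They were 54 and 15 without WT oxLDL replicate 3, where 1297 of the 37434 passed. Without any 1 of the other WT arrays, 4 to 13 rises and 3 to 11 falls passed, where 51 to 225 of the 37434 did. The directions held for all 88 IDs without any 1 WT array. The 4 named IDs changed in WT by 1.70, 1.65, -1.17 and -0.97 in the order given above. ENSMUST00000087904 was dim in WT, at 6.80, 7.20 and 6.98 with oxLDL and 8.10, 8.71 and 7.69 without it. Among the WT arrays only unstimulated replicate 2 had it above the array median. In the WT fit ENSMUST00000149983 and ENSMUST00000029769 each had a limma adjusted p of 0.019, ENSMUST00000087904 one of 0.0497 and ENSMUST00000079824 one of 0.302. Leaving out 1 WT array gave 0.00271 to 0.0616 for ENSMUST00000149983, 0.00271 to 0.0635 for ENSMUST00000029769, 0.022 to 0.147 for ENSMUST00000087904 and 0.190 to 0.493 for ENSMUST00000079824. None of the 4 passed the test of a difference between the genotypes (limma adjusted p = 1 for each), but ENSMUST00000079824 did so without WT oxLDL replicate 3 and unstimulated WT replicate 1 together. There its change was -1.58 in the knockout and -0.44 in WT, a difference of -1.15 with a standard error of 0.15 (limma adjusted p = 0.00552). That setting was not planned, and it was the only 1 of 19 alternatives to call this ID. It left out the highest of the ID's unstimulated WT levels, 10.17 against 8.84 and 8.62.

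For small knockout changes the shares with the same direction in WT lay above the shares of all tested IDs. Of the 3383 rises under 0.25, 77.7% had a positive WT change, and of the 1730 falls under 0.25, 94.2% had a negative one. WT oxLDL replicate 3 deviated from its group by an SD of 0.251, the widest of the 12 arrays. Without it the shares were 89.4% and 77.6%, where 63.6% of all tested IDs had a positive WT change and 36.4% a negative one. This array thus changed which direction was shared more, while both shares stayed above those of all tested IDs. Between 0.5 and 1, 367 of 370 rises and 793 of 796 falls had the same direction in WT. Called knockout changes opposed WT with no overlap of groups in either genotype in 19 IDs, 17 of them higher in the knockout, where 15.1% of tested IDs had WT groups that did not overlap. The largest of these 19 was 0.33 in size in the knockout, and the lowest adjusted p of the difference of responses among them was 0.157.

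**Figure D5:**
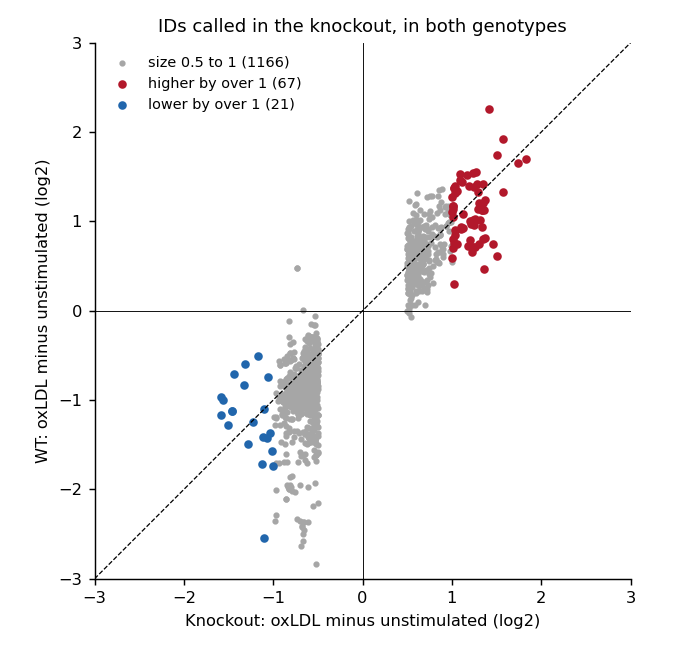
Log2 change with oxLDL in WT (y axis) against that in the knockout (x axis) for IDs called in the knockout with a change of 0.5 or more in size. The dashed line marks equal changes. All 88 IDs over 1 lie on the same side of 0 in both genotypes, and a tail of knockout falls of 0.5 to 1 reaches WT falls of more than 2.

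Some transcripts with a moderate knockout fall had a much larger fall in WT, and they were picked by both changes after the values were seen. Among the 796 IDs with a knockout fall of 0.5 to 1, 21 IDs, or 10 signals, had a WT fall of more than 2. None of the 21 passed the test of the difference (lowest limma adjusted p = 0.0772). Their median change was -0.68 in the knockout and -2.35 in WT, and -2.06 in WT without WT oxLDL replicate 3, which left 13 IDs past 2. None of the 370 rises of that size had a WT rise above 1.36. ENSMUST00000038423, chosen after its values were seen as the ID with the lowest p for the difference, belongs to this group. Its level was 10.83, 11.09 and 11.14 in knockout cells with oxLDL and 11.52, 11.61 and 11.48 in unstimulated knockout cells. In WT it was 8.30, 8.65 and 7.84 with oxLDL and 11.41, 11.21 and 10.68 without it. It thus fell by 0.52 in the knockout (standard error 0.08, limma adjusted p = 4.37e-04). In WT it fell by 2.84 (standard error 0.25, limma adjusted p = 0.00774). The difference of 2.32, knockout minus WT, had a standard error of 0.29 and did not pass (limma adjusted p = 0.0772).

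The test of the difference of responses over all 12 arrays called 0 of the 37434 IDs in limma, or 0%, and 1100, or 2.94%, had an unadjusted p under 0.05. With values centred on array medians it called 2 and after quantile normalization 15, so a count of 0 does not show that the responses were alike. At an unadjusted p under 0.05 there were 126 of the 796 moderate falls, of which 120 fell further in WT and 6 further in the knockout. For the 370 moderate rises there were 27, of which 20 rose further in the knockout and 7 further in WT. For the 67 rises over 1 there were 8, of which 7 rose further in the knockout. For the 21 falls over 1 there were 6, of which 4 fell further in the knockout and 2 further in WT. At any p, 669 of the 796 moderate falls were larger in WT, and 482 were without WT oxLDL replicate 3. For the 370 moderate rises these counts were 184 and 258. The counts at an unadjusted p under 0.05 were not repeated without that array. These lists were chosen by the same knockout changes that enter the difference, so the counts describe them and test nothing.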

How the data were processed

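The authors deposited log2 expression levels for transcript-level probe sets of 12 Affymetrix Mouse Exon 1.0 ST arrays, per the labels' design text. Per the submitters' processing notes, the tools were PLIER and Affymetrix Power Tools. The background correction, the normalization between arrays and the annotation version: not given in the sources used here. Each column matched 1 sample, and the values held 0 missing entries. The knockout response was fitted on the 6 knockout arrays alone with limma 3.58.1 in R 4.3.3 (lmFit, eBayes with an intensity trend, Benjamini-Hochberg adjusted p under 0.05). Residual degrees of freedom were 4 and prior ones 7.20. The WT response used the 6 WT arrays and the difference of responses all 12, on the same 37434 IDs. Fold changes carry no pseudocount. IDs were said to share a signal if linked by centred values within 0.15 on all 12 arrays. The test was checked on simulated data. The arrays, lists and tests were chosen with earlier results of these data known. Named IDs were the 2 largest rises and 2 largest falls with adjusted p under 0.05 and groups that did not overlap. For want of names, 18 gene lists, 11 marker lists and the average over a symbol's IDs were not run. Arrays of different groups share replicate numbers, but the labels describe separate mice.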

Additional observations from a re-analysis of the deposited data

Results flagged for a closer look

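ENSMUST00000006392 was singled out by a test of the difference of the oxLDL responses between the genotypes, made with the filter on dim IDs taken over all 12 arrays, an alternative chosen after seeing the data. The difference, knockout minus WT, was -1.71 with a standard error of 0.12 (limma adjusted p = 1.18e-04). Its level was 8.06, 7.98 and 8.00 in knockout cells with oxLDL and 7.65, 7.62 and 7.74 in unstimulated knockout cells. In WT cells it was 9.83, 9.99 and 10.07 with oxLDL and 8.01, 7.90 and 7.81 without it. None of its knockout arrays lay above the array median (0 of 6), so it was outside the 37434 IDs tested above. Its unstimulated WT arrays lay below their medians too. It thus passed the filter over 12 arrays only through the WT oxLDL arrays, the group where it was high. That filter used the same values as the test, so passing it adds no support. This ID was also the 1 call of the difference with no filter, an alternative that was not planned. With no filter its knockout rise was 0.35 with a standard error of 0.04 (limma adjusted p = 0.00153), and its WT rise was 2.06. Both genotypes rose, and the WT rise was the larger.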

How the results depend on the processing

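The 4 named IDs kept their direction and an adjusted p under 0.05 in limma in all 18 alternatives run for each, with knockout changes of 1.76 to 1.89 for ENSMUST00000149983, 1.68 to 1.79 for ENSMUST00000029769, -1.69 to -1.51 for ENSMUST00000087904 and -1.63 to -1.49 for ENSMUST00000079824. They were chosen by large changes on these same arrays, which made that nearly certain, so it adds no support. ENSMUST00000087904 also passed the filter on dim IDs through the unstimulated arrays alone. The number of knockout calls was within 1.5 times of 9706 except with all 12 arrays, 618, and in a test against a change of 1.2-fold, 1402 (538 higher, 864 lower), where the larger threshold excludes small changes. It was 6578 to 12359 when 1 array was left out. The number over 1 stayed between 76 and 99 in its alternatives, 84 to 94 when 1 array was left out. Array weights gave 14363 calls, 66.3% of them higher. With the replicate block the counts were 7530 and 88. The labels give no pairing by replicate number. The deviations of same-numbered knockout arrays correlated at 0.012, -0.243 and -0.047, and those of WT arrays were not compared. In WT, 336 IDs passed, against 1459 after quantile normalization, 916 with centring on medians, 2749 with all 12 arrays, 1111 with the replicate block and 7 to 1297 when 1 array was left out, the lowest without unstimulated WT replicate 1 and the highest without WT oxLDL replicate 3. The difference of responses had 0 calls with the replicate block, against 15 after quantile normalization, 2 with centring, 1 with weights by genotype, 1 with the filter over all 12 arrays, 1 with no filter, 0 to 20 when 1 array was left out, and 120 without WT oxLDL replicate 3 and unstimulated WT replicate 1. ENSMUST00000038423 was among the calls in 7 of the 11 settings that made any. The causes were not tested. The average over the IDs of a gene symbol was not run.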
